A study of Homo sapiens with 12 samples.

Results

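JAG1, JAG2, DLL1, NOTCH1, NOTCH2, NOTCH3, HES1 and HEY1, 8 genes that code for ligands, receptors and targets of Notch signaling, were followed through 12 RNA-seq libraries. They were chosen by gene name and are 8 of the 32152 genes with deposited values. Of these, 17665 are protein coding. Notch ligands sit on the surface of one cell and bind Notch receptors on its neighbor. Binding exposes the receptor to cleavage by an ADAM protease and then by gamma-secretase, and the freed intracellular part moves to the nucleus, where it joins the DNA-binding protein RBPJ and switches on targets such as the HES and HEY repressors. In breast cancer the pathway is known for its links to stem-like cells and to epithelial-to-mesenchymal transition (EMT), and JAG1 is the ligand most often tied to aggressive disease.

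The cells came from MDA-MB-231 and Hs-578T, 2 established triple-negative breast cancer lines. For each, 2 libraries were of parental controls, 2 carried the label ERK5-ko and 2 the label MEK5DD. ERK5-ko cells were made with CRISPR/Cas9 guides against MAPK7, the gene of ERK5, and were grown from single sorted cells, with 1 surviving clone in MDA-MB-231, while MEK5DD is MEK5, the kinase upstream of ERK5, made constitutively active. Values are RPKM, in which the reads on a gene are divided by its length and by the size of the library. Parental controls carried passage labels 29 and 30 in MDA-MB-231 and 83 and 84 in Hs-578T. The other libraries carried 7 to 11, so against parental controls passage and genotype cannot be told apart. By the paper, the knockout lines were made from cells at passages above these labels. The labels of ERK5-ko libraries therefore appear to count from a later start and need not mean fewer passages. For the ERK5-ko label, the choice of clone cannot be told apart from genotype either. Nothing states that the 2 libraries of a group came from separate cultures, so p-values measure the spread between these libraries only.

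Library totals, recovered from the RPKM values, lay between 20248162 and 27791195 reads. MAPK7 RNA was not lower in libraries labelled ERK5-ko, where its change against parental controls on the log2 scale was 0.29 for MDA-MB-231 and 0.26 for Hs-578T (adjusted p = 0.0709 and 0.0624, limma). In a fit with replicate number as block, both passed as higher, with adjusted p = 0.0274 and 0.0252. A guide can disrupt the protein without lowering its RNA, so this is no check of the knockout, and the groups are called by their labels. The paper itself reports strongly reduced ERK5 protein by Western blot in the ERK5-ko cells of both lines, and states that clones were also checked by qRT-PCR. MAP2K5, which codes for MEK5, rose with the MEK5DD label by 3.77 in MDA-MB-231 and by 0.50 in Hs-578T on the log2 scale (adjusted p = 3.31e-10 and 0.00492, limma). Of the markers of breast cells, ESR1 averaged at most 0.0908 RPKM in any group and ERBB2 between 31.5 and 55.9. The leukocyte and endothelial genes PTPRC, CD3E and CDH5 averaged at most 0.337 RPKM in any group, whereas PECAM1 reached 6.39 in Hs-578T. The list of 4 epithelial markers summed to 1052 to 1148 RPKM in MDA-MB-231 parental controls, 1843 to 1860 under the ERK5-ko label and 931 to 965 under the MEK5DD label, and to 189 to 264, 577 to 626 and 229 to 254 RPKM in Hs-578T in the same order. KRT8 and KRT18 made up most of each of these sums. With the ERK5-ko label, 3 of the 4 epithelial markers rose in MDA-MB-231, and CDH1 did not (-0.05, adjusted p = 0.872, limma). For Hs-578T 2 rose, KRT18 (1.71 on the log2 scale) and CDH1 (1.21), and KRT8 fell (-0.75). Under the MEK5DD label, EPCAM (-1.30) and CDH1 (-1.14) fell and all 4 mesenchymal markers rose in MDA-MB-231, VIM by 1.04, while in Hs-578T KRT8 (0.43) and 2 mesenchymal markers rose. The mesenchymal list fell for 2 of 4 genes in MDA-MB-231 and rose for 2 of 4 in Hs-578T with the ERK5-ko label. Of the 3 luminal markers tested, GATA3 (1.04) and FOXA1 (0.45) rose with the ERK5-ko label in Hs-578T. The third, ERBB2, changed there by -0.25 (adjusted p = 0.106, and 0.0309 with the replicate block, limma). With the MEK5DD label, ERBB2 fell in MDA-MB-231 (-0.34) and Hs-578T (-0.40). FOXA1 fell in Hs-578T (-0.30, adjusted p = 0.0472, limma) but did not pass with the replicate block (adjusted p = 0.0558, limma). With the block, KRT8 in MDA-MB-231 (-0.21) and CD44 in Hs-578T (-0.28) also passed as lower under this label (adjusted p = 0.0346 and 0.0382, limma). Several of these markers moved with the labels and others did not. With the ERK5-ko label, VIM changed by -0.05 in each line (adjusted p = 0.829 for MDA-MB-231 and 0.775 for Hs-578T, limma). Of all tested genes, 17.3% passed with the ERK5-ko label for MDA-MB-231 and 39.4% for Hs-578T. With the MEK5DD label, 41.3% and 23.4% passed in the same order. The marker counts are read against these shares, and the part of the markers in the results below was not tested.

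Promoter sequence was printed for HES1, which had the largest log2(RPKM + 0.5) change of the 8 genes with the ERK5-ko label in MDA-MB-231, for JAG1, which changed most in Hs-578T libraries labelled MEK5DD, and for NOTCH3, which separated the parental lines most. The bases lie just before the transcription start in RefSeq (GRCh38.p14), are given 5′ to 3′ on the strand of the gene and stop where GENCODE 29 begins the gene, if that is earlier. Capitals mark the RBPJ letters GTGGGAA and their core TGGGAA, searched on both strands.
HES1, chr3:194135898-194136144, plus strand: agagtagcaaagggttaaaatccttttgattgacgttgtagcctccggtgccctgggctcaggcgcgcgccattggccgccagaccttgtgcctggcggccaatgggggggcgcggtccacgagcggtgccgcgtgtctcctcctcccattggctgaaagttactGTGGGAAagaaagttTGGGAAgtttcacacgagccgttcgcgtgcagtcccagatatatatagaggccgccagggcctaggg
JAG1, chr20:10674108-10674249, minus strand: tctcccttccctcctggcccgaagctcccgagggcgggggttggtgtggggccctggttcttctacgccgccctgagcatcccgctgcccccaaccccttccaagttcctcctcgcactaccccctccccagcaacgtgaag
NOTCH3, chr19:15200996-15201245, minus strand: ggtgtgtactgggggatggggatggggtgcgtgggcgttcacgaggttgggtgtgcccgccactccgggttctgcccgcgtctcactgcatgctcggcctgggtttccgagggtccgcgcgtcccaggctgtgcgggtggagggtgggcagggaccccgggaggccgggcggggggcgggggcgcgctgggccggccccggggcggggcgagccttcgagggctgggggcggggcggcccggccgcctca

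Of the 8 genes, 6 had a promoter entry, and DLL1 and HEY1 had none. In the 250 bases before the RefSeq start, HES1 held GTGGGAA beginning 85 bases before the start and a further TGGGAA beginning 70 bases before it. The TGGGAA core also lies inside the first of these sites. JAG1, JAG2, NOTCH1, NOTCH2 and NOTCH3 held neither string in this window. Across 35116 promoters of the same length, 5.43% held GTGGGAA and 20.8% held TGGGAA. HES1 also held 3 matches to CACNAG, an N box bound by HES repressors, and NOTCH3 held 1, against 32.0% of all promoters with at least 1 match. No MEF2 box, the motif of a factor family that ERK5 phosphorylates, was found in the windows of these 6 genes, while 2.80% of all promoters held one. A match is a string of letters and says nothing about binding in these cells.

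The levels of the 8 genes set the 2 lines apart. JAG1, NOTCH1, NOTCH2, HES1 and HEY1 passed the test between parental controls (adjusted p under 0.05, limma), as did 77.4% of the 13737 genes tested. JAG2, DLL1 and NOTCH3 are not counted. Without the line where they are higher, they would not have reached an RPKM of 0.5 in 2 or more libraries, the filter for testing. JAG1 and NOTCH2 were the most abundant ligand and receptor in both lines, NOTCH3 and HEY1 were mostly in Hs-578T, and JAG2 was mostly in MDA-MB-231. The plot of RPKM by library shows the values.

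**Figure D1:**
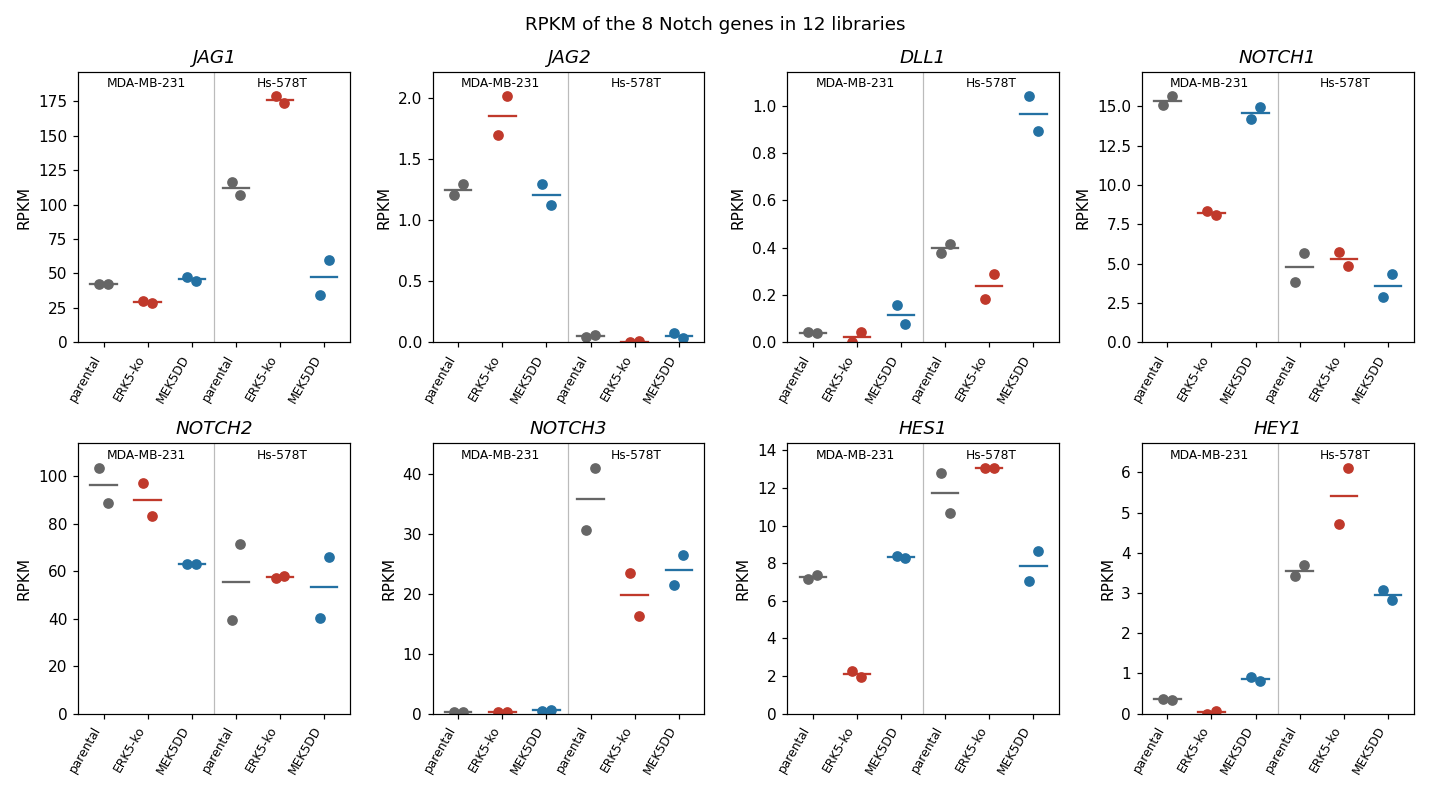
RPKM (linear axes from 0) of each of the 8 genes in 12 libraries, with MDA-MB-231 on the left and Hs-578T on the right of each panel. Points are libraries, bars are the mean of 2, and colors mark parental controls (gray), libraries labelled ERK5-ko (red) and libraries labelled MEK5DD (blue). HES1 lies at 2.27 and 1.95 RPKM in the MDA-MB-231 libraries labelled ERK5-ko, and JAG1 ranges from 34.3 to 179 RPKM within Hs-578T.

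JAG1 (ENSG00000101384.11, chromosome 20, 10637684 to 10674107 of GRCh38) codes for the membrane ligand Jagged1. Its RPKM was 42.7 and 42.1 in MDA-MB-231 parental controls, 30.2 and 28.4 under the ERK5-ko label and 47.2 and 44.5 under the MEK5DD label. In Hs-578T it was 116 and 107 in parental controls, 179 and 174 under the ERK5-ko label and 34.3 and 59.98 under the MEK5DD label. The Hs-578T libraries labelled ERK5-ko were the highest of the 12 and the parental controls of that line came next. The Hs-578T libraries labelled MEK5DD overlapped those of MDA-MB-231 parental controls and MEK5DD, and the MDA-MB-231 libraries labelled ERK5-ko were the lowest. Thus the libraries labelled ERK5-ko lay below their parental controls in one line and above them in the other. By qRT-PCR, on cells kept in charcoal-stripped medium, the paper reports lower JAG1 in the ERK5-ko cells of MDA-MB-231 and also of Hs-578T. The Hs-578T values here run opposite to that report, and the reason was not tested.

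In Hs-578T, JAG1 rose with the ERK5-ko label by 0.65 on the log2 scale (standard error 0.186, adjusted p = 0.0163, limma) and fell with the MEK5DD label by 1.29 on the log2 scale (standard error 0.186, adjusted p = 0.000702, limma). Between libraries labelled ERK5-ko and MEK5DD of Hs-578T, the difference was 1.95 on the log2 scale (adjusted p = 8.14e-06, limma). The MDA-MB-231 change with the ERK5-ko label was -0.53 (95% confidence interval -0.94 to -0.12, adjusted p = 0.0756, limma) and its adjusted p with the replicate block was 0.0498. In fits with the libraries of each line alone, both calls turned around. The fall in MDA-MB-231 then passed (adjusted p = 0.00478, limma) and the rise in Hs-578T did not (adjusted p = 0.116, limma), so both calls depend on how the spread is estimated. The rise in Hs-578T lost its call without Hs-578T parental replicate 2 (adjusted p = 0.0622, limma) and without either library labelled ERK5-ko (adjusted p = 0.079 and 0.0789, limma). JAG1 shares 1180 bases with an antisense gene, RP11-103J8.1, and the strand setting of the counting is not given in the sources used here.

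JAG2 (ENSG00000184916.8, chromosome 14, 105140981 to 105168824), which codes for the second Jagged ligand, was low in MDA-MB-231 and near absent in Hs-578T. Its RPKM was 1.21 and 1.30 in MDA-MB-231 parental controls, 1.70 and 2.02 under the ERK5-ko label and 1.30 and 1.124 under the MEK5DD label. The 2 libraries labelled ERK5-ko were the highest, and those of the other groups overlapped. JAG2 rose with the ERK5-ko label in MDA-MB-231 by 0.42 on the log2 scale (standard error 0.109, adjusted p = 0.0206, limma). The call did not hold with a pseudocount of 0.1 (adjusted p = 0.107, limma). This call was lost without either parental control (adjusted p = 0.138 without replicate 1 and 0.0801 without replicate 2, limma), without ERK5-ko replicate 2 (adjusted p = 0.151, limma) and on recovered reads (adjusted p = 0.0548, limma voom). In Hs-578T, no library held more than 5 reads of JAG2, with 7 in the parental controls and 1 in the libraries labelled ERK5-ko, a ratio per library total of 8.11 (95% exact counting interval 1.04 to 365). On recovered reads that fall passed (-2.40 on the log2 scale, adjusted p = 0.0175, limma voom), whereas on the log2(RPKM + 0.5) scale it was -0.13 and did not. JAG2 shares 16631 bases with RP11-44N21.4 on the same strand, so reads could be split between them.

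DLL1 (ENSG00000198719.8, chromosome 6, 170282206 to 170306565), a Delta-like ligand, passed the filter on low values through the Hs-578T libraries labelled MEK5DD alone, where its RPKM was 1.04 and 0.894. It was 0.378 and 0.416 in the parental controls and 0.185 and 0.289 in the libraries labelled ERK5-ko of that line. The 3 groups did not overlap, in the order MEK5DD, parental and ERK5-ko. The log2 difference of MEK5DD from parental was 0.71 (standard error 0.113). It is given with no test, since a gene that passes the filter through its high group had to differ. The ERK5-ko change was -0.29 (adjusted p = 0.0646, limma). All 6 MDA-MB-231 libraries held 0 to 7 reads of DLL1, with 11 in the 2 libraries labelled MEK5DD and 4 in parental controls, a ratio of 2.79 per library total (95% exact counting interval 0.826 to 12.01). DLL1 lies over FAM120B on the opposite strand for 15863 bases.

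JAG1 made up most of the RPKM summed over JAG1, JAG2, DLL1, DLL3 and DLL4 in every group, from 93.9% ± 0.964 (SD, n = 2) to 99.0% ± 0.0164 (SD, n = 2), both under the ERK5-ko label, in MDA-MB-231 and Hs-578T respectively. The length behind the RPKM was close to the mean length of the transcripts for most genes. For JAG1 it was 1639 bases, against a mean of 1919 and a longest transcript of 5940, while for NOTCH1 and NOTCH2 it was 3576 and 3632 against means of 2985 and 3269. With the longest transcript as the length, the share of JAG1 was 88.7% to 97.99% over the 6 groups.

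The receptors differed in which groups stood apart. NOTCH1 (ENSG00000148400.9, chromosome 9, 136494444 to 136545862) had RPKM values of 15.1 and 15.6 in MDA-MB-231 parental controls, 8.38 and 8.12 under the ERK5-ko label and 14.2 and 14.96 under the MEK5DD label. In Hs-578T they were 3.85 and 5.67 in parental controls, 5.71 and 4.87 under the ERK5-ko label and 2.86 and 4.32 under the MEK5DD label. The MDA-MB-231 libraries labelled ERK5-ko thus lay well below the other 4 of the line, while the parental controls of Hs-578T overlapped both other groups. NOTCH1 fell with the ERK5-ko label in MDA-MB-231 by 0.86 on the log2 scale (standard error 0.183, adjusted p = 0.00819, limma). It was also lower there than in libraries labelled MEK5DD, by a log2 fold change of -0.78 (adjusted p = 0.00339, limma). The fall kept its direction but had adjusted p = 0.0518 to 0.0642 (limma) without MDA-MB-231 parental replicate 1, parental replicate 2 or ERK5-ko replicate 2. In Hs-578T the change was 0.16 with the ERK5-ko label (95% confidence interval -0.25 to 0.56) and -0.37 with the MEK5DD label (-0.77 to 0.04).

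NOTCH2 (ENSG00000134250.17, chromosome 1, 119911553 to 120069626) had the highest RPKM of the receptors in all 12 libraries. It was 104 and 89.0 in MDA-MB-231 parental controls, 97.4 and 83.2 under the ERK5-ko label and 62.9 and 63.3 under the MEK5DD label. In Hs-578T it was 39.6 and 71.3 in parental controls, 57.3 and 57.9 under the ERK5-ko label and 40.5 and 66.2 under the MEK5DD label. The MEK5DD values of MDA-MB-231 lay below the other 4, whereas the Hs-578T groups overlapped throughout. With the MEK5DD label, the MDA-MB-231 change was -0.60 on the log2 scale (95% confidence interval -1.15 to -0.05, adjusted p = 0.0762, limma), and with the replicate block the adjusted p was 0.0104. Against libraries labelled ERK5-ko of the same line, the difference went from adjusted p = 0.107 to 0.0181 with the block (0.51 on the log2 scale, limma). NOTCH2 has near-identical partial copies, listed here as NOTCH2NL on 2 lines with group means of at most 1.74 RPKM. Reads from the copied part of NOTCH2 could be split between them.

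NOTCH3 (ENSG00000074181.8, chromosome 19, 15159038 to 15200981) was the member that separated the parental lines most. Its RPKM was 30.6 and 41.1 in Hs-578T parental controls, 23.5 and 16.4 under the ERK5-ko label and 21.6 and 26.5 under the MEK5DD label. In MDA-MB-231 it was 0.277 and 0.218 in parental controls, 0.196 and 0.194 under the ERK5-ko label and 0.486 and 0.567 under the MEK5DD label. Parental controls were the highest group of Hs-578T and the other groups of that line overlapped, while the MEK5DD pair was the highest in MDA-MB-231. Parental MDA-MB-231 differed from parental Hs-578T by -5.59 on the log2 scale (standard error 0.181). This difference is given with no test, since NOTCH3 would not have passed the filter on low values without Hs-578T.

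Within Hs-578T, NOTCH3 fell with the ERK5-ko label by 0.84 on the log2 scale (standard error 0.181, adjusted p = 0.00362, limma) and with the MEK5DD label by 0.56 (standard error 0.181, adjusted p = 0.0448, limma). The first call was lost without Hs-578T ERK5-ko replicate 2 (adjusted p = 0.0526, limma). The second was lost without Hs-578T parental replicate 2 or MEK5DD replicate 1 (adjusted p = 0.247 and 0.2, limma) and under median-ratio scaling or quantile normalization (adjusted p = 0.0927 and 0.0924, limma). In MDA-MB-231 the MEK5DD change was 0.46 (95% confidence interval 0.06 to 0.86, adjusted p = 0.0636, limma), from 68 reads against 32 in parental controls, a ratio of 2.15 per library total (95% exact counting interval 1.40 to 3.39).

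NOTCH2 made up 80.4% to 91.2% of the RPKM summed over NOTCH1 to NOTCH4 in the MDA-MB-231 groups and 56.7% to 69.5% in the Hs-578T groups. NOTCH3 made up 23.8% to 37.9% in Hs-578T and at most 0.670% in MDA-MB-231. Within MDA-MB-231, NOTCH1 held 8.38% ± 0.684 under the ERK5-ko label, 13.8% ± 1.57 in parental controls and 18.6% ± 0.509 under the MEK5DD label (SD, n = 2 each). With the longest transcript as the length, NOTCH2 held 77.3% to 89.6% in MDA-MB-231 and 58.3% to 70.1% in Hs-578T. NOTCH4 averaged under 1% in every group and did not pass the filter on low values.

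**Figure D2:**
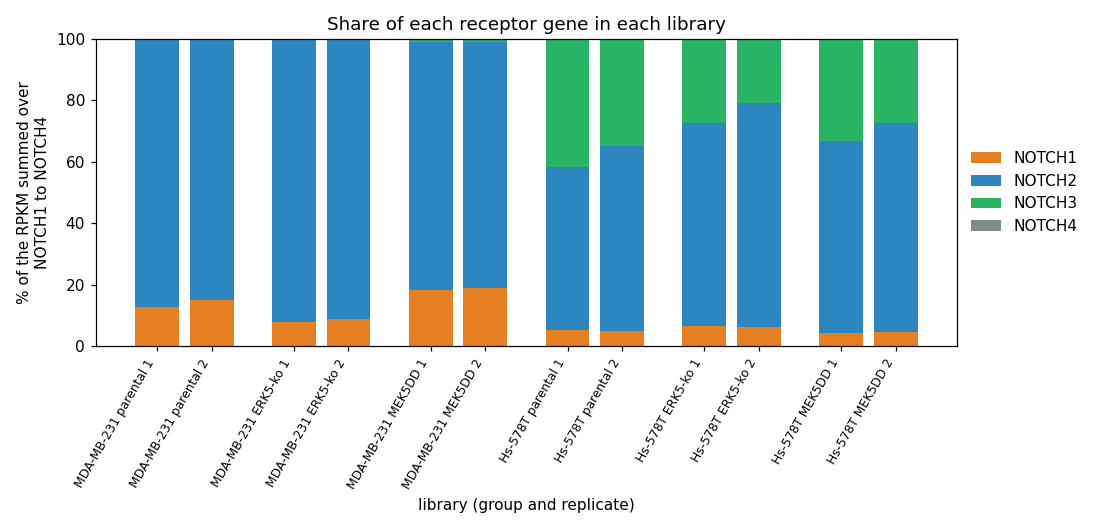
Percent of the RPKM summed over NOTCH1 to NOTCH4 held by each receptor gene, 1 bar per library, ordered by line, group and replicate. NOTCH2 (blue) is the largest part of every bar, NOTCH3 (green) appears as a large part in Hs-578T, and NOTCH1 (orange) is smallest within MDA-MB-231 in the libraries labelled ERK5-ko. NOTCH4 is too small to see.

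The replicates of Hs-578T bear on the receptor values. NOTCH1, NOTCH2 and NOTCH3 have longest transcripts of 9306, 11389 and 8666 bases. Replicate 2 minus replicate 1 of NOTCH2 was 0.84 on the log2 scale in Hs-578T parental controls and 0.70 in libraries labelled MEK5DD, against 0.02 in those labelled ERK5-ko. Over the fifth of tested genes with the longest transcripts, the median of the same difference was 0.24, 0.29 and 0.05 in these groups, and over the fifth with the shortest it was -0.16, -0.17 and -0.01. In MDA-MB-231 the medians over these 2 sets of genes lay between -0.14 and 0.09. The part of transcript length in the receptor differences was not tested beyond a correction for length and GC content. Under it, NOTCH3 passed in MDA-MB-231 with the MEK5DD label (0.75 on the log2 scale, adjusted p = 0.000345, limma), as did NOTCH2 (-0.52, adjusted p = 0.00636, limma). In Hs-578T, NOTCH3 still passed as lower under it, by -0.84 with the ERK5-ko label and -0.45 with the MEK5DD label (adjusted p = 0.000203 and 0.0182, limma). NOTCH1 and NOTCH2 still did not pass in that line.

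**Figure D3:**
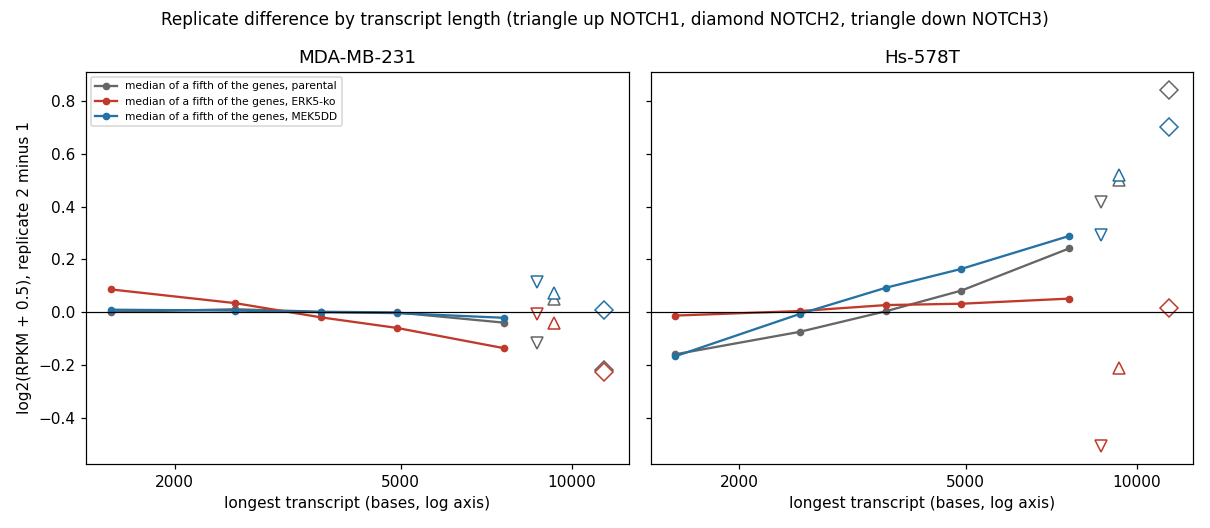
Replicate 2 minus replicate 1 of log2(RPKM + 0.5) against the length of the longest transcript in bases (log axis), for MDA-MB-231 and Hs-578T. Filled points joined by lines are medians over 5 equal groups of the tested genes by length, and open symbols are NOTCH1, NOTCH2 and NOTCH3, colored by group. Parental controls and libraries labelled MEK5DD of Hs-578T climb with length from -0.16 and -0.17 to 0.24 and 0.29, and NOTCH2 lies above both lines.

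HES1 (ENSG00000114315.3, chromosome 3, 194136145 to 194138732), a transcriptional repressor and a direct target of Notch, had RPKM values of 7.18 and 7.36 in MDA-MB-231 parental controls, 2.27 and 1.95 under the ERK5-ko label and 8.37 and 8.27 under the MEK5DD label. The libraries labelled ERK5-ko were the lowest of all 12, with 66 and 63 reads against 229 and 264 in parental controls. In Hs-578T the values were 12.8 and 10.7 in parental controls, 13.08 and 13.05 under the ERK5-ko label and 7.08 and 8.65 under the MEK5DD label. The latter pair was the lowest of that line, and the ERK5-ko pair lay just above the higher parental control.

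HES1 fell with the ERK5-ko label in MDA-MB-231 by 1.58 on the log2 scale (standard error 0.124, adjusted p = 1.39e-05, limma), to a fold of 0.335. On the log2(RPKM + 0.5) scale it was the only one of the 8 genes that passed with a fold below 0.5 or above 1.5 in that comparison, as were 1.07% of tested genes below 0.5 and 2.80% above 1.5. HEY1, described next, had a fold of 0.623 on that scale and a larger fall by reads. With the MEK5DD label, HES1 fell in Hs-578T by 0.55 on the log2 scale (standard error 0.124, adjusted p = 0.00868, limma), a call that was lost without Hs-578T parental replicate 1 (adjusted p = 0.0577, limma). The other changes of HES1 were 0.18 with the MEK5DD label in MDA-MB-231 (95% confidence interval -0.09 to 0.46) and 0.15 with the ERK5-ko label in Hs-578T (-0.12 to 0.43). Between the libraries labelled ERK5-ko and MEK5DD, HES1 differed in opposite directions, by -1.76 in MDA-MB-231 and by 0.70 in Hs-578T (adjusted p = 3.65e-07 and 0.000716, limma).

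HEY1 (ENSG00000164683.16), a repressor related to HES1 and likewise a Notch target, was low in MDA-MB-231, and parental controls of Hs-578T held more of it. Its reads numbered 11 and 12 in MDA-MB-231 parental controls, 0 and 2 under the ERK5-ko label and 27 and 28 under the MEK5DD label. The RPKM values were 0.358 and 0.348, 0 and 0.0645, and 0.904 and 0.813. The 3 groups of this line were fully separated. Per library total, parental controls held 10.4 times the reads of the libraries labelled ERK5-ko (95% exact counting interval 2.57 to 91.1) and libraries labelled MEK5DD held 2.42 times those of parental controls (1.47 to 4.13). These intervals cover counting error only, since reads without molecular identifiers need not be independent molecules.

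On the log2(RPKM + 0.5) scale, which understates changes of low genes, HEY1 fell with the ERK5-ko label in MDA-MB-231 by 0.68 (standard error 0.128, adjusted p = 0.00408, limma) and rose with the MEK5DD label by 0.67 (standard error 0.128, adjusted p = 0.00139, limma). The RPKM values of Hs-578T were 3.42 and 3.69 in parental controls, 4.73 and 6.12 under the ERK5-ko label and 3.06 and 2.83 under the MEK5DD label. All 3 groups of this line were separate as well, with libraries labelled ERK5-ko the highest. HEY1 rose there with the ERK5-ko label by 0.54 on the log2 scale (standard error 0.128, adjusted p = 0.00654, limma), and the MEK5DD change was -0.24 (95% confidence interval -0.52 to 0.05). With a pseudocount of 0.1 or with the libraries of the line alone, the rise did not pass (adjusted p = 0.0589 and 0.0586, limma). The rise lost its call without Hs-578T ERK5-ko replicate 2 (adjusted p = 0.074, limma).

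**Figure D4:**
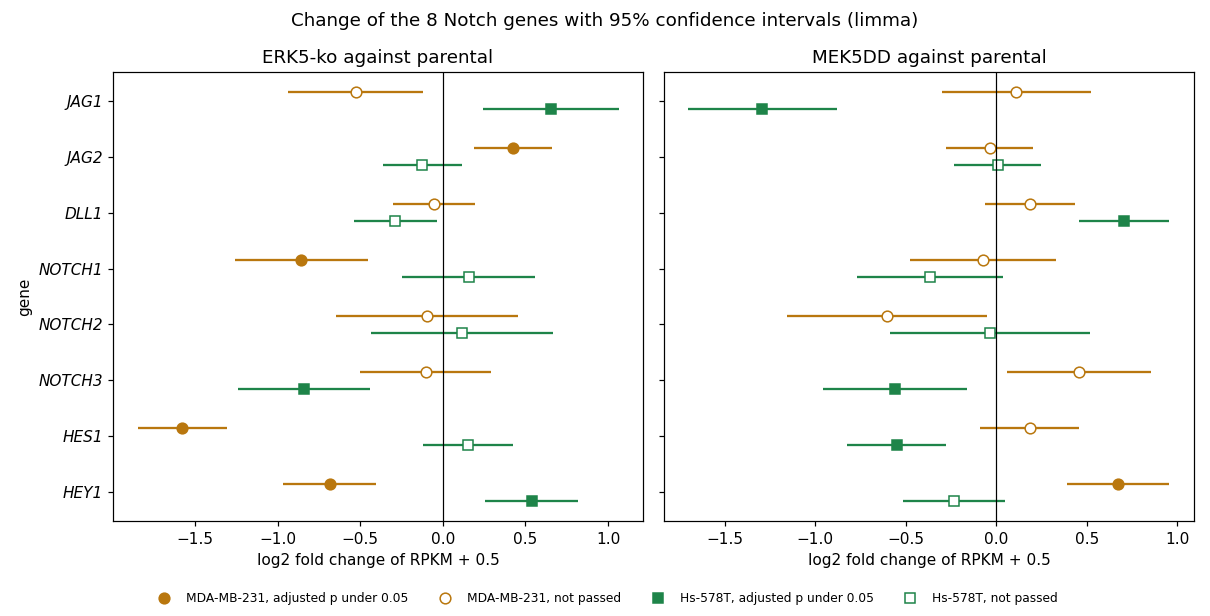
Log2 fold change of RPKM + 0.5 against parental controls for the 8 genes, with 95% confidence intervals from limma, for libraries labelled ERK5-ko (left) and MEK5DD (right). Circles are MDA-MB-231 and squares Hs-578T, filled where the adjusted p is under 0.05 (DLL1 with the MEK5DD label in Hs-578T passed the filter through that group alone). HES1, HEY1 and NOTCH1 lie left of 0 with the ERK5-ko label in MDA-MB-231 and not in Hs-578T, and JAG1 with the MEK5DD label lies at -1.29 in Hs-578T and 0.11 in MDA-MB-231.

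Counted over the 8 genes, 4 passed with the ERK5-ko label in MDA-MB-231, with JAG2 higher and NOTCH1, HES1 and HEY1 lower, where 17.3% of tested genes passed (6.91% higher and 10.4% lower), and JAG1 also passed as lower with the replicate block, as given above. In Hs-578T, 3 passed, JAG1 and HEY1 higher and NOTCH3 lower, where 39.4% of tested genes did (19.7% higher and 19.7% lower). With the MEK5DD label, only HEY1 passed in MDA-MB-231, where 41.3% of tested genes did (17.5% higher and 23.8% lower), and NOTCH2 also passed with the replicate block. In Hs-578T, 3 of the 7 genes other than DLL1 passed with the MEK5DD label, JAG1, NOTCH3 and HES1, all lower, where 23.4% did (6.44% higher and 17% lower). The median log2 change of these genes was -0.32, 0.13, 0.15 and -0.37 in these comparisons (the last without DLL1), beside -0.04, 0.01, -0.01 and -0.08 over all tested genes. The comparisons share their parental controls within a line. Between libraries labelled ERK5-ko and MEK5DD, 6 of the 8 passed in MDA-MB-231, all but DLL1 and NOTCH2, and 4 of the 7 other than DLL1 in Hs-578T, JAG1, NOTCH1, HES1 and HEY1, where 55% and 50% of tested genes passed. Of these calls, NOTCH3 in MDA-MB-231 was lost without any 1 of its 4 libraries (adjusted p = 0.055 to 0.108, limma) and on recovered reads (adjusted p = 0.055, limma voom), and JAG1 there without ERK5-ko replicate 2 or MEK5DD replicate 1 (adjusted p = 0.0683 and 0.0704, limma). NOTCH1 in Hs-578T went from 0.52 to 0.26 on the log2 scale without MEK5DD replicate 1 (adjusted p = 0.272, limma) and was also lost without either library labelled ERK5-ko (adjusted p = 0.184 and 0.0647, limma) and under median-ratio scaling or quantile normalization (adjusted p = 0.0775 and 0.0562, limma).

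Whether the lines differed in their change was tested as a contrast of contrasts. For the ERK5-ko label, 6 of the 8 genes differed between the lines (39.8% of tested genes did), HES1 most, with -1.73 on the log2 scale for MDA-MB-231 minus Hs-578T (standard error 0.175, adjusted p = 2.72e-05, limma), and HEY1 with -1.22 (adjusted p = 0.000361, limma). For the MEK5DD label, 4 of the 7 other than DLL1 differed (39.6% of tested genes did), JAG1 most, with 1.40 (standard error 0.263, adjusted p = 0.00154, limma). MAP2K5 RNA itself rose far more in MDA-MB-231, with 3.26 in the same contrast (adjusted p = 4.84e-08, limma). Its part in these differences was not tested. NOTCH2 differed with neither label, with intervals of -0.99 to 0.57 and -1.35 to 0.21. With the correction for length and GC content, its MEK5DD difference passed (-0.53, adjusted p = 0.0378, limma), as did that of NOTCH1 (0.47, adjusted p = 0.0107, limma).

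Between parental controls, MDA-MB-231 was higher for JAG2 (1.67 on the log2 scale), NOTCH1 (1.61) and NOTCH2 (0.85) and lower for JAG1 (-1.39), DLL1 (-0.73), HES1 (-0.65), HEY1 (-2.25) and NOTCH3, given above. The median of all tested genes in this comparison was 0.19, and -0.02 after median-ratio scaling and 0.08 after quantile normalization, so these differences are read against that shift. JAG2, DLL1 and NOTCH3 are given with no test, since they passed the filter on low values through a single line. The largest adjusted p of the other genes was 0.00882, for NOTCH2 (limma). Its difference was 0.43 without Hs-578T parental replicate 1 and 0.74 without MDA-MB-231 parental replicate 1, and its call depended on those libraries.

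Beyond the 8 genes, 61 other genes of the pathway were listed by role, of which 55 passed the filter on low values. DLL4, DLK1, NOTCH4, DTX4, HES5 and NRARP did not. MFAP5 and HEYL passed it only through 1 group, ERK5-ko of Hs-578T for MFAP5 and MEK5DD of MDA-MB-231 for HEYL, and are not counted where that group is compared. With the ERK5-ko label, 3 of 55 rose and 2 fell in MDA-MB-231, and 8 of 54 rose and 15 fell in Hs-578T. With the MEK5DD label, 6 of 54 rose and 18 fell in MDA-MB-231, and 1 of 55 rose and 11 fell in Hs-578T. The shares of all tested genes that passed in these comparisons are given above, and the median change of the counted genes lay between -0.22 and -0.04 on the log2 scale.

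**Figure D5:**
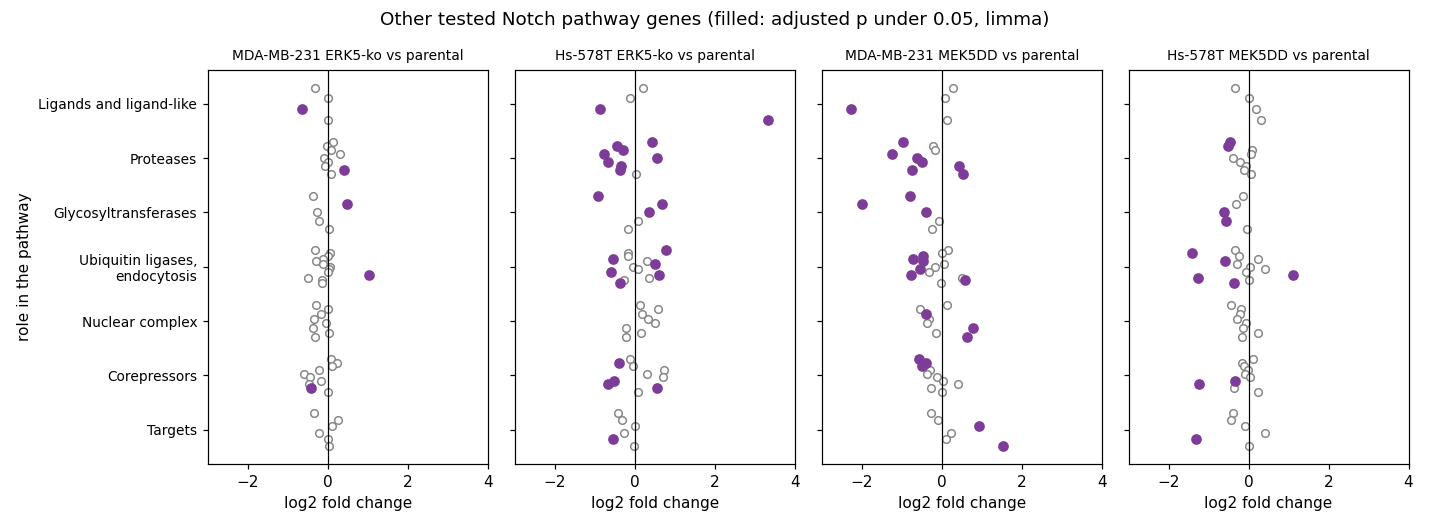
Log2 fold change of RPKM + 0.5 against parental controls for the 55 other tested Notch pathway genes, 1 point per gene, grouped by role, in 4 comparisons. Filled points have an adjusted p under 0.05 (limma). The point at 3.33 with the ERK5-ko label in Hs-578T is MFAP5, which like HEYL entered through its high group alone, and that at -2.27 with the MEK5DD label in MDA-MB-231 is MFAP2.

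Among ligand-like genes, MFAP5, a microfibril protein that binds Notch and Jagged proteins, went from 4 and 2 reads in Hs-578T parental controls to 130 and 142 with the ERK5-ko label, a log2 difference of 3.33, given with no test for the reason named with DLL1. MFAP2, its relative, fell with the ERK5-ko label in both lines, by 0.65 in MDA-MB-231 and by 0.88 in Hs-578T on the log2 scale (adjusted p = 0.00532 and 0.000305, limma). It fell further with the MEK5DD label in MDA-MB-231, by 2.27 (adjusted p = 1.15e-07, limma), from RPKM values of 5.05 and 5.13 to 0.619 and 0.705.

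The proteases include ADAM10 and ADAM17, which make the first cut of the receptor, and the subunits of gamma-secretase, which make the last. In Hs-578T libraries labelled ERK5-ko, the gamma-secretase subunits APH1B (-0.78 on the log2 scale), NCSTN (-0.67), PSEN2 (-0.36) and APH1A (-0.31) fell, as did ADAM17 (-0.46). In the same libraries 2 rose, ADAM10 (0.43) and FURIN (0.55), which processes the newly made receptor. In MDA-MB-231 libraries labelled MEK5DD, 5 fell, APH1B (-1.24), ADAM10 (-0.96), PSEN2 (-0.73), FURIN (-0.62) and NCSTN (-0.50), while PSENEN rose (0.53). Only PSEN2 passed with the ERK5-ko label in MDA-MB-231, at 0.39, and ADAM10 (-0.46) and ADAM17 (-0.52) passed with the MEK5DD label in Hs-578T.

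Glycosyltransferases add sugars to the receptor that set which ligand it favors. The fringe gene MFNG rose with the ERK5-ko label by 0.47 in MDA-MB-231 and by 0.68 in Hs-578T on the log2 scale (adjusted p = 0.0292 and 0.00174, limma) and fell with the MEK5DD label in MDA-MB-231 by 1.99 (adjusted p = 3.37e-07, limma). Its RPKM there was 4.19 and 4.58 in parental controls and 0.807 and 0.661 in libraries labelled MEK5DD. LFNG, another fringe gene, fell with the ERK5-ko label in Hs-578T by 0.93 and with the MEK5DD label in MDA-MB-231 by 0.80 (adjusted p = 0.000934 and 0.00202, limma). POFUT1, which adds fucose to the receptor, rose by 0.35 with the ERK5-ko label in Hs-578T and fell by 0.62 with the MEK5DD label there and by 0.40 in MDA-MB-231. POGLUT1, which adds glucose, fell by 0.55 with the MEK5DD label in Hs-578T.

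Ubiquitin ligases of the pathway act on ligands or on receptors. NEURL1, which acts on ligands, rose with the ERK5-ko label in both lines, by 1.01 in MDA-MB-231 and by 0.61 in Hs-578T on the log2 scale (adjusted p = 0.000277 and 0.00237, limma). With the MEK5DD label it fell in MDA-MB-231 by 0.78 and rose in Hs-578T by 1.116 (adjusted p = 0.000353 and 0.000123, limma). Its RPKM in MDA-MB-231 was 0.450 and 0.400 in parental controls, 1.22 and 1.52 under the ERK5-ko label and 0.0543 and 0.0236 under the MEK5DD label. DTX1, a Deltex ligase, fell with the MEK5DD label in Hs-578T by 1.41 (adjusted p = 3.42e-05, limma), and NEURL1B fell by 1.27 (adjusted p = 0.00125, limma). DTX3L (-0.59) and NUMBL (-0.36), a relative of the Notch inhibitor NUMB, were also lower there. The other genes of this role that passed with the ERK5-ko label were all in Hs-578T, with AAK1 (0.77) and FBXW7 (0.50), which marks the freed receptor for breakdown, higher and MIB2 (-0.59), DTX3 (-0.56) and NUMBL (-0.38) lower. In MDA-MB-231 libraries labelled MEK5DD, NUMB was higher (0.59), and DTX3 (-0.72), MIB1 (-0.53), a ligase for the ligands, DTX2 (-0.46) and DTX3L (-0.46) were lower.

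In the nucleus, RBPJ passed in none of the 4 comparisons of a label with parental controls, with log2 changes from -0.13 to 0.23, and no gene of the nuclear complex did with the ERK5-ko label in either line. MAML3, a coactivator, and SNW1 rose with the MEK5DD label in MDA-MB-231, by log2 fold changes of 0.79 and 0.64 (adjusted p = 0.000379 and 0.000549, limma), and KAT2B, an acetyltransferase, fell by 0.40 (adjusted p = 0.0234, limma). The corepressor TLE3 fell by 0.42 in MDA-MB-231 and rose by 0.55 in Hs-578T with the ERK5-ko label (adjusted p = 0.0498 and 0.00643, limma). TLE2 fell in Hs-578T with both labels, by 0.66 for ERK5-ko and 1.23 for MEK5DD, as did TLE1, by 0.52 and 0.33. The deacetylase HDAC1 fell by 0.39 with the ERK5-ko label in Hs-578T and by 0.40 with the MEK5DD label in MDA-MB-231, where HDAC2 (-0.48) and the corepressor CIR1 (-0.56) were also lower.

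Among the other targets, HEYL, a relative of HEY1, went in MDA-MB-231 from 8 and 10 reads in parental controls to 101 and 131 with the MEK5DD label, a log2 difference of 1.53, likewise given with no test. HES6 rose there by 0.93 (adjusted p = 0.000246, limma). HEY2 fell in Hs-578T by 1.32 with the MEK5DD label and by 0.55 with the ERK5-ko label (adjusted p = 3.23e-05 and 0.00385, limma), from RPKM values of 3.36 and 3.65 in parental controls to 0.924 and 1.31 and to 2.15 and 2.30. No target besides HES1 and HEY1 passed with the ERK5-ko label in MDA-MB-231.

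For 7 of the 8 genes, the tested genes most alike in pattern over the 12 libraries were found after the mean of each line was taken out, as a description in which every value shares its library and group. RBM23 (r = 0.988) was most like JAG1, ERGIC3 (0.916) JAG2 and LRCH3 (0.974) NOTCH1. DIP2C (0.965) was most like NOTCH2, EVI5L (0.958) NOTCH3, FBF1 (0.972) HES1 and FAM111A (0.983) HEY1. The next in likeness were LMNB1, ADARB2, ZNF598, AKAP9, PLEKHG3, BAP1 and ZNF850, in the same order of genes. None of these genes is among the other 61 pathway genes or the 8.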

How the data were processed

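RNA of 12 libraries, 2 for each of 6 groups of cell line and label, was compared, with groups taken from the sample labels. Cells were 70% confluent at harvest, and the library kit was a stranded mRNA kit. The authors deposited RPKM values of 32152 genes, and the submitters' processing notes name bcl2fastq, Trimmomatic 0.32, TopHat2 2.1.1, R 3.3.1, DESeq2 1.12.4 and GRCh38. The gene lengths behind the RPKM were within 2% of the mean GENCODE 29 transcript length for 86.1% of 17596 protein-coding genes, which sets levels between genes.

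Whole reads and library totals were recovered from the RPKM steps. With a tolerance of 0.001, 32151 genes came out whole, against 0 of 500 genes when totals were 1% off. The step was tested on simulated data, with 12 totals and 99.6% of 5697 genes exact. No pair of libraries was identical.

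Protein-coding genes that reached an RPKM of 0.5 in 2 or more libraries, 13737 in all, were fitted with limma 3.58.1 (R 4.3.3) on log2(RPKM + 0.5), as 6 group means with 6 residual degrees of freedom, a variance trend and Benjamini-Hochberg adjustment within each of 9 comparisons. A gene passed at an adjusted p under 0.05. On simulated data for the ERK5-ko comparison of MDA-MB-231, 92% of 100 genes changed by 1 on the log2 scale and 100% of 100 changed by 2 passed, as did 16 of 13537 unchanged genes.

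Libraries with the same replicate number deviated together, with correlations from 0.107 to 0.541 for the 6 within-line pairs of groups. The numbers follow consecutive passages and were taken as pairing. Values with a replicate block are therefore given where they change a call of the 8 genes, or of MAPK7 and the markers against parental controls. The 8 genes, the pathway list, the marker genes and the rule for most alike genes were chosen with earlier results of these data known. Pathway genes that passed with a label against parental controls, or missed the filter, were named, apart from some results that are not reported here. Motif searches used Python 3.11.15 and pandas 2.3.3, and figures matplotlib 3.10.9. Experiments other than RNA-seq were not analysed here.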

Additional observations from a re-analysis of the deposited data

Results flagged for a closer look

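The change with a label differed between the lines, by a test of the difference itself (limma, MDA-MB-231 minus Hs-578T, log2 scale), for 6 of the 8 genes with the ERK5-ko label and for 4 of the 7 other than DLL1 with the MEK5DD label. Of all tested genes, 39.8% and 39.6% differed. For the ERK5-ko label, the ligands differed by -1.18 for JAG1 (adjusted p = 0.00459, limma), which rose in Hs-578T, and 0.55 for JAG2 (adjusted p = 0.0153, limma), which rose in MDA-MB-231. On the Hs-578T side the JAG2 difference rests on 0 to 4 reads in each library compared. The receptors differed by -1.01 for NOTCH1 (adjusted p = 0.00975, limma), which fell in MDA-MB-231, and 0.74 for NOTCH3 (adjusted p = 0.0397, limma), which fell in Hs-578T. The targets differed by -1.73 for HES1 (adjusted p = 2.72e-05, limma) and -1.22 for HEY1 (adjusted p = 0.000361, limma), which fell in MDA-MB-231.

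For the MEK5DD label, the differences were 1.40 for JAG1 (adjusted p = 0.00154, limma), -0.52 for DLL1, 1.02 for NOTCH3 (adjusted p = 0.00866, limma), 0.73 for HES1 (adjusted p = 0.0064, limma) and 0.91 for HEY1 (adjusted p = 0.0023, limma). MAP2K5 RNA differed by 3.26 in the same contrast (adjusted p = 4.84e-08, limma). DLL1 passed the filter on low values through the Hs-578T libraries labelled MEK5DD alone, so its difference had to arise and is given with no test. It rests on 0 to 7 reads in each MDA-MB-231 library, and was -0.04 on recovered reads (adjusted p = 0.974, limma voom). The NOTCH3 difference for the ERK5-ko label was 0.55 on recovered reads (adjusted p = 0.535, limma voom) and rests on 11 to 17 reads in each MDA-MB-231 library compared. It lost its call without either MDA-MB-231 parental control, without either MDA-MB-231 library labelled ERK5-ko, and without Hs-578T parental or ERK5-ko replicate 2 (adjusted p = 0.0733 to 0.171, limma). The JAG2 difference lost its call without MDA-MB-231 parental replicate 1 or ERK5-ko replicate 2 (adjusted p = 0.0579 and 0.0616, limma).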

How the results depend on the processing

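Values and calls kept direction and side of the threshold in most alternatives, and the cause of those that did not was not tested. Of the counts of genes passed among the 8, here with DLL1 counted (4 with the MEK5DD label in Hs-578T), that with the MEK5DD label in MDA-MB-231 went from 1 to 2 with a pseudocount of 0.1, quantile normalization or the replicate block, and to 3 with the libraries of the line alone, with the correction for length and GC content, with or without the replicate block, and with Hs-578T parental and MEK5DD replicate 1 both left out. That correction and that exclusion were chosen after seeing the data. With the libraries of the line alone, the count for Hs-578T went from 3 to 1 with the ERK5-ko label and from 4 to 2 with the MEK5DD label, and the latter was also 2 with both replicate 1 libraries left out. Leaving out 1 library at a time, with the lone library of a group assumed to vary like the others, gave 2 to 4 with the ERK5-ko label in MDA-MB-231, 0 to 3 in Hs-578T (0 without Hs-578T ERK5-ko replicate 2), 1 in every case with the MEK5DD label in MDA-MB-231 and 3 to 5 in Hs-578T. The count of 2 in MDA-MB-231 arose without parental replicate 1 or 2 or without ERK5-ko replicate 2. Apart from the calls given with JAG1, NOTCH2 and MAPK7 and this count, the replicate block changed no call reported for the 8 genes.

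Directions reversed only for changes that had not passed. With the ERK5-ko label in MDA-MB-231, NOTCH2 (-0.09) became 0.033 with the correction for length and GC content, with or without the block, and -0.21 to 0.020 with 1 library left out, where the values above 0 arose without parental replicate 1 or ERK5-ko replicate 2, and DLL1 (-0.05) ranged from -0.11 to 0.0053. In Hs-578T, NOTCH2 (0.11) became -0.083 with the correction, -0.31 with both replicate 1 libraries left out (adjusted p = 0.0437, limma) and -0.31 to 0.54 with 1 left out, and NOTCH1 (0.16) became -0.095 with both left out and -0.095 to 0.41 with 1. With the MEK5DD label in MDA-MB-231, JAG2 (-0.04) became 0.099 with quantile normalization, 0.25 with the correction and -0.11 to 0.036 with 1 library left out, above 0 without MEK5DD replicate 2, and NOTCH1 (-0.07) became 0.019 with quantile normalization and 0.21 with the correction. In Hs-578T, JAG2 (0.01) became -0.082 with both left out and -0.056 to 0.070 with 1, and NOTCH2 (-0.04) became 0.056 with median-ratio scaling, 0.041 with quantile normalization, 0.0037 with the correction and -0.46 to 0.38 with 1 library left out. The few reads of JAG2 in Hs-578T, of DLL1, NOTCH3 and HEY1 in MDA-MB-231 limit what can be seen there.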
